A study of Danio rerio with 12 samples.

Results

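Brains of zebrafish heterozygous for the *psen2* S4Ter mutation (Het, labelled psen2S4Ter/+) were compared with the brains of wild type siblings (WT, labelled psen2+/+). The members are the libraries whose labels give either genotype, 4 Het and 4 WT, which make up 8 of the 12 libraries of the study. The other 4 come from homozygous (Hom) siblings, which share the statistical model and the filter on low counts and were also compared with Het. All fish were females aged 6 months, with no treatment named in the labels, from a single mating of heterozygous parents, were kept in a shared tank, and gave 1 library per entire brain. WT fish are numbered 79, 86, 88 and 95 and Het fish 80, 81, 84 and 89, and values for single fish are given in that order. S4Ter is a frameshift deletion made by CRISPR-Cas9 near the start of the coding sequence, where it creates a stop codon, and in these Tübingen strain fish it descends from 1 carrier outcrossed to wild type. Het fish retain a wild type copy of the gene. The extraction text of the labels speaks of pooled larvae, whereas the tissue and age labels and the study's methods give single adult brains, and the latter were followed.

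Presenilins are the catalytic subunits of γ-secretase, a protease that cuts membrane proteins such as Notch receptors and the amyloid precursor protein within the lipid bilayer. *PRESENILIN 2* is mutated in some families with early onset Alzheimer's disease, and part of its protein resides in late endosomes and lysosomes, where the vacuolar proton pump (V-ATPase) maintains the low pH. Bulk RNA from an entire brain mixes neurons, glia, vessels and blood, so that fewer cells of a type and less RNA per cell cannot be told apart.

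The mutated gene was examined first. *psen2* (ENSDARG00000015540, reverse strand of chromosome 1 of GRCz11, 51048975 to 51062405, 11 exons covering 1840 bp) stood at 22.6, 17.8, 21.3 and 20.3 CPM (counts scaled to a common library total) in the WT fish. Its level was 19.9, 16.9, 22.3 and 20.9 CPM in the Het fish. The groups overlapped and the difference in log2 CPM (Het minus WT, logFC) was -0.04 (SE 0.12, edgeR quasi-likelihood test, false discovery rate (FDR) over all tested genes 0.838). Raw counts ran from 182 to 235 in Het and from 222 to 245 in WT. A two-sided exact permutation test of the log2 CPM of this gene gave p = 0.686, where 4 fish against 4 cannot go below 0.0286. The count adds both alleles and cannot show the mutation itself, so it is no check of the genotype labels. The study itself checked these libraries by allele. It reports both alleles at about equal levels in every Het fish and the mutant allele absent from WT fish.

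Measures of entire libraries were compared next. Total counts ran from 15738056 to 17026801 in Het and from 11878943 to 15953499 in WT (exact permutation test of means, p = 0.0857, two-sided). Mitochondrial rRNA, the RNA of the mitochondrial ribosome, took 31.3% to 35.2% of all counts in Het and 17.9% to 26.4% in WT, a difference of 11.4 percentage points without overlap (exact permutation test, p = 0.0286, the smallest that the design allows, and 0.0857 after Benjamini-Hochberg adjustment over the 3 library measures). The study reports that rRNA content was high and varied between samples, presumably because a depletion kit based on human sequences worked incompletely. Its statement is about rRNA in general, whereas the share given here covers the mitochondrial rRNA genes only. The parts of depletion and of the brains themselves in this share were not tested. Genes with under 500 bp of exon took 8.62% to 20.5% of the remaining counts in Het and 3.32% to 9.58% in WT (exact permutation test, p = 0.0571), with Het 84 highest and WT 88 highest within its genotype. On the first principal component of the 8 fish, which carried 42.4% of the variance, Het scores ran from 23.3 to 38.0 and WT scores from -61.8 to -3.34. Het 84 stood apart from the other Het fish on the second component, at -37.0 against 15.6 to 24.8, and WT 88 was the WT fish nearest to the Het group on the first. Neuronal, radial glial and oligodendrocyte markers were abundant in every library, while hormone genes of the pituitary summed to at most 24.6 CPM in any Het or WT fish. Eye markers summed to 24.1 to 197 CPM in WT and 34.5 to 170.4 CPM in Het, and muscle markers to 22.3 to 103 CPM and 5.19 to 239 CPM. Pineal markers summed to 48.4, 47.5, 10.8 and 9.75 CPM in WT and to 6.22 to 19.8 CPM in Het, with a median logFC of -2.26. WT 79 and WT 86 were thus the highest WT fish for pineal markers, and also for eye markers (197 and 117 CPM). In these lists 0 members had an FDR under 0.05 by edgeR's quasi-likelihood test.

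**Figure D1:**
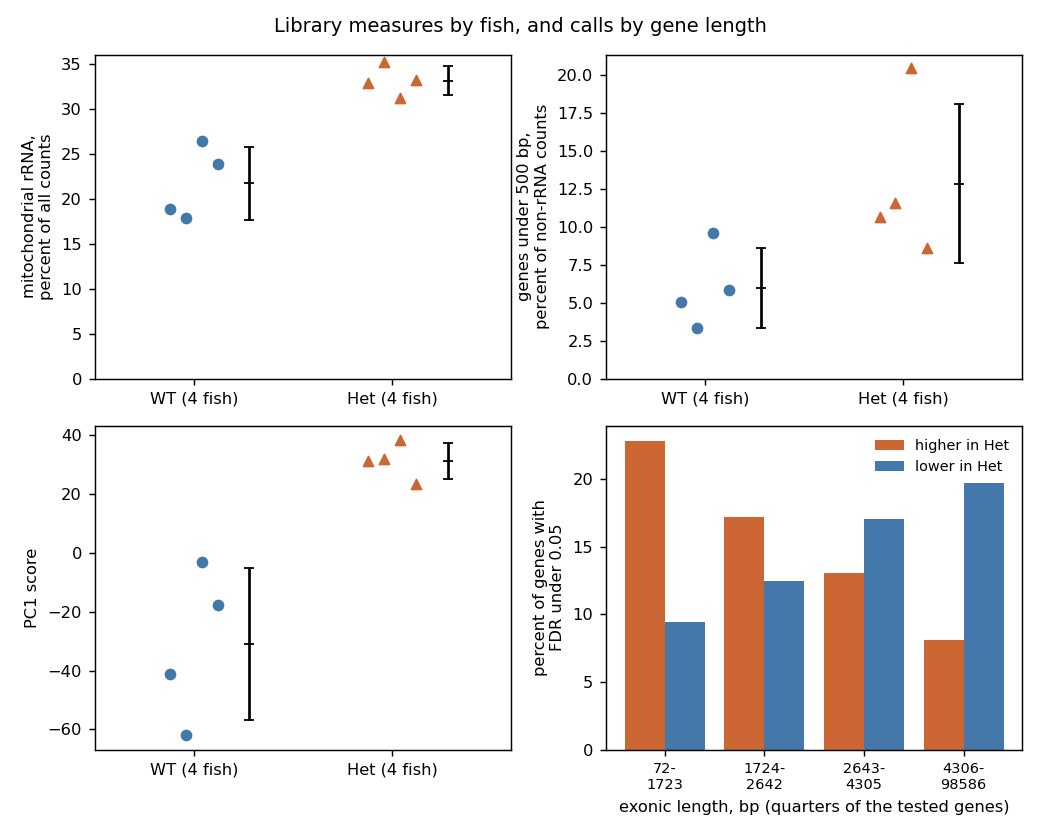
Library measures of the 4 WT and 4 Het fish (points; bars to their right give mean and SD) and, at lower right, the percent of tested genes with an FDR under 0.05 in each of 4 classes of exonic length. The mitochondrial rRNA share of every Het fish lies above that of every WT fish, and short genes were called higher in Het more often (22.8% in the shortest class) than long ones (8.12% in the longest).

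Het brains differed from WT brains in many genes. Of 16021 tested genes, 508 (3.17%) were differentially expressed (DE), which required a Bonferroni-adjusted p under 0.01, or an FDR under 0.01 together with a logFC above 1 or below -1. Of these, 335 were higher in Het (2.09%) with a median logFC of 1.21, and 173 were lower (1.08%) with a median logFC of -1.14. All but 2 of the DE genes met the criterion of a logFC beyond 1 in size, which bounds the size of these medians from below. Of the DE genes 65.9% were higher, compared with 48.8% (210 higher and 220 lower) under a correction for gene length within each fish. Across all tested genes the median logFC was 0.01. An FDR under 0.05 was reached by 2452 genes higher in Het (15.3%) and by 2352 lower (14.7%). The 4 Het values lay entirely above the 4 WT values in 2225 genes and entirely below them in 2085 (26.9% of all tested genes together), and groups were apart in 493 of the 508 DE genes. Single fish moved the count of DE genes, which was 138 without WT 79, 187 without WT 86, 230 without Het 81, 311 without Het 80 and 820 without WT 88. With the share of mitochondrial rRNA added to the model as a covariate 0 genes were DE and 0 had an FDR under 0.05 (edgeR quasi-likelihood test, 1245 genes at an unadjusted p under 0.05), and because that share does not overlap between the genotypes the contributions of share and genotype cannot be told apart. Under that covariate 109 of 109 called genes among those named singly no longer passed, and 10 of them changed sign. Medians of the fitted logFC under that covariate are given here for some lists only, without a test, and they cannot divide share from genotype. The median over cytosolic ribosomal protein genes was 0.85 (0.81 without the covariate), over core histones 1.07 (0.63), over genes induced by glucocorticoids 0.56 (0.67), over nuclear complex I genes 0.46 (0.72) and over V-ATPase genes 0.20 (0.42), against 0.03 over all genes (0.01).

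**Figure D2:**
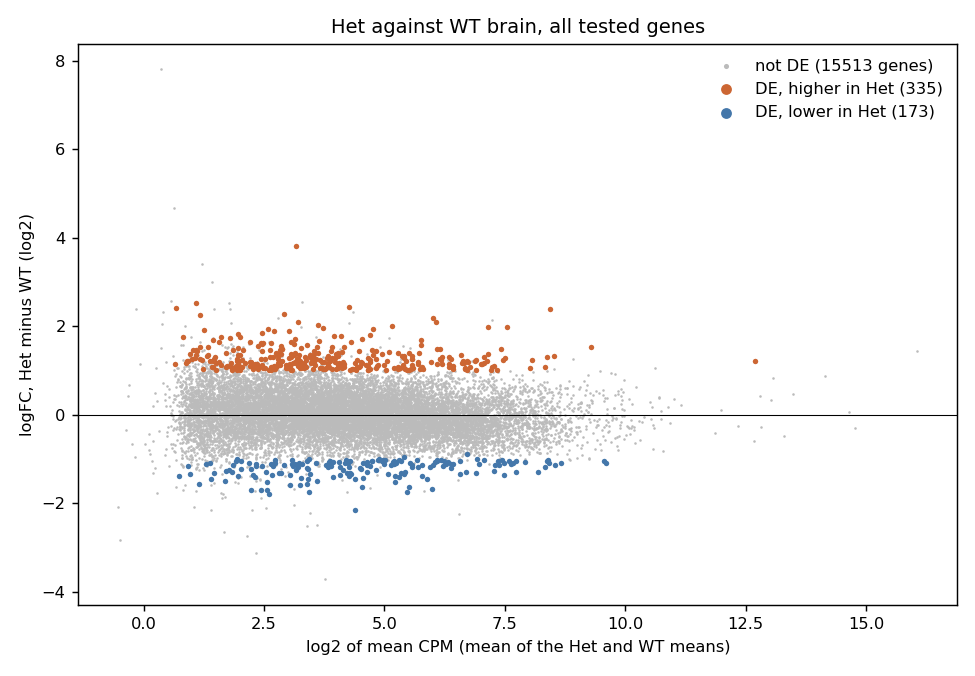
logFC (Het minus WT, log2) of the 16021 tested genes against the log2 of their mean CPM; orange points are DE and higher in Het (335), blue points DE and lower (173), grey points not DE. Most DE genes lie between 1 and 2 log2 units from zero, with 12 above 2 and 1 below -2. The lower limit of 1 was set by the DE criteria for all but 2 genes.

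The leading genes in each direction were chosen among DE genes whose groups did not overlap, so their separation was a condition of choice. Among the genes higher in Het, the smallest p belonged to *nr4a1* (ENSDARG00000000796, chromosome 23), an orphan nuclear receptor that neurons induce within minutes of activity. It stood at 3.46, 3.26, 4.27 and 3.02 CPM in WT and at 15.6, 17.1, 10.9 and 16.3 CPM in Het, a 4.27-fold rise (logFC 2.09, SE 0.20, FDR 0.00101). The lowest Het fish, Het 84, was still above every WT fish. Next came *cbr1* (carbonyl reductase, chromosome 1), with 15.8, 9.38, 10.1 and 9.84 CPM in WT and 56.2, 34.01, 47.1 and 35.00 CPM in Het (logFC 1.94, SE 0.20, FDR 0.00115). WT 79 was the highest of the WT fish for this gene, and the groups remained apart. *sfrp1b*, a secreted antagonist of Wnt ligands, rose from 5.19, 4.11, 6.18 and 5.78 CPM to 17.1, 17.98, 15.98 and 12.3 CPM (logFC 1.57, SE 0.17, FDR 0.00115). The Het fish lay well above the WT fish in each of these genes. The gap junction gene *cx44.2* rose 2.94-fold (logFC 1.56, SE 0.18, FDR 0.00115), and *fxyd1*, a small regulator of the sodium pump, 2.98-fold (logFC 1.57, SE 0.19, FDR 0.00115).

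*tsc22d3*, the glucocorticoid-induced leucine zipper, stood at 96.9, 70.8, 66.6 and 84.8 CPM in WT and 179, 187, 199 and 141 CPM in Het (logFC 1.15, SE 0.14, FDR 0.00115). *eif4a1a*, an RNA helicase of translation initiation, rose from 79.3 ± 14.6 CPM (SD, n = 4) to 159 ± 6.72 CPM. The Het values of that gene were close together, from 152 to 165 CPM. *sec11a* encodes the catalytic subunit of signal peptidase, which trims proteins entering the secretory pathway, and its logFC was 1.145 (SE 0.14). *cyp3c1*, a cytochrome P450, and *tbpl1*, a relative of the TATA-binding protein, both had a logFC of 1.09. *zgc:122979*, known by a cluster number only, rose 2.31-fold. The FDR of these genes ran from 0.00101 to 0.00120.

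Among the genes lower in Het, the smallest p belonged to *cipca*. This gene, whose mammalian counterpart represses the CLOCK transcription factor, stood at 55.5, 59.2, 55.5 and 55.2 CPM in WT. Its Het values were 28.1, 30.4, 31.1 and 26.2 CPM (logFC -0.96, SE 0.10, FDR 0.00115). The WT fish lay close together, with WT 86 highest, and every Het fish was far below them. *myt1b*, a zinc finger factor of neuronal differentiation, fell from 239.7, 282, 184 and 212 CPM to 113, 90.9, 115 and 102 CPM (logFC -1.12, SE 0.13, FDR 0.00115). *mturn*, whose frog counterpart promotes neural differentiation, fell from 125, 129.5, 83.01 and 94.1 CPM to 50.5, 52.6, 49.1 and 53.3 CPM (logFC -1.07, SE 0.13, FDR 0.00120). In both genes WT 88 and WT 95 were the lower WT fish. *crtc3*, a coactivator of CREB, fell 2.44-fold (logFC -1.29, SE 0.16, FDR 0.00120), and *cdk19*, a kinase of the Mediator complex, 2.104-fold (logFC -1.07, SE 0.13, FDR 0.00115).

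*pcbp3*, an RNA-binding protein of poly(C) stretches, was among the more abundant of these genes, at 508, 421, 416 and 442 CPM in WT and 253, 198, 217 and 195 CPM in Het (logFC -1.05, SE 0.12, FDR 0.00115). BX247868.1 lies next to it on the same strand of chromosome 9, from 41990086 to 42038319, with *pcbp3* from 42040557 to 42127228. Its levels were 35.2, 26.4, 34.1 and 32.02 CPM in WT and 17.6, 13.8, 14.9 and 13.3 CPM in Het (logFC -1.10, SE 0.13, FDR 0.00115). Both models fell by similar amounts, and whether they are separate transcripts was not tested. The scaffold gene *magi3b* (-0.88), the microtubule-associated *mtus2a* (-1.05), the synaptic adhesion gene *lrrc4ca* (-1.05), the deubiquitinase *otud4* (-1.20) and *fam222a* (-1.04) completed the 12 lower genes with the smallest p, here with their logFC values. *magi3b* and *cipca* are the DE genes that passed by the Bonferroni criterion alone, with a logFC within 1.

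**Figure D3:**
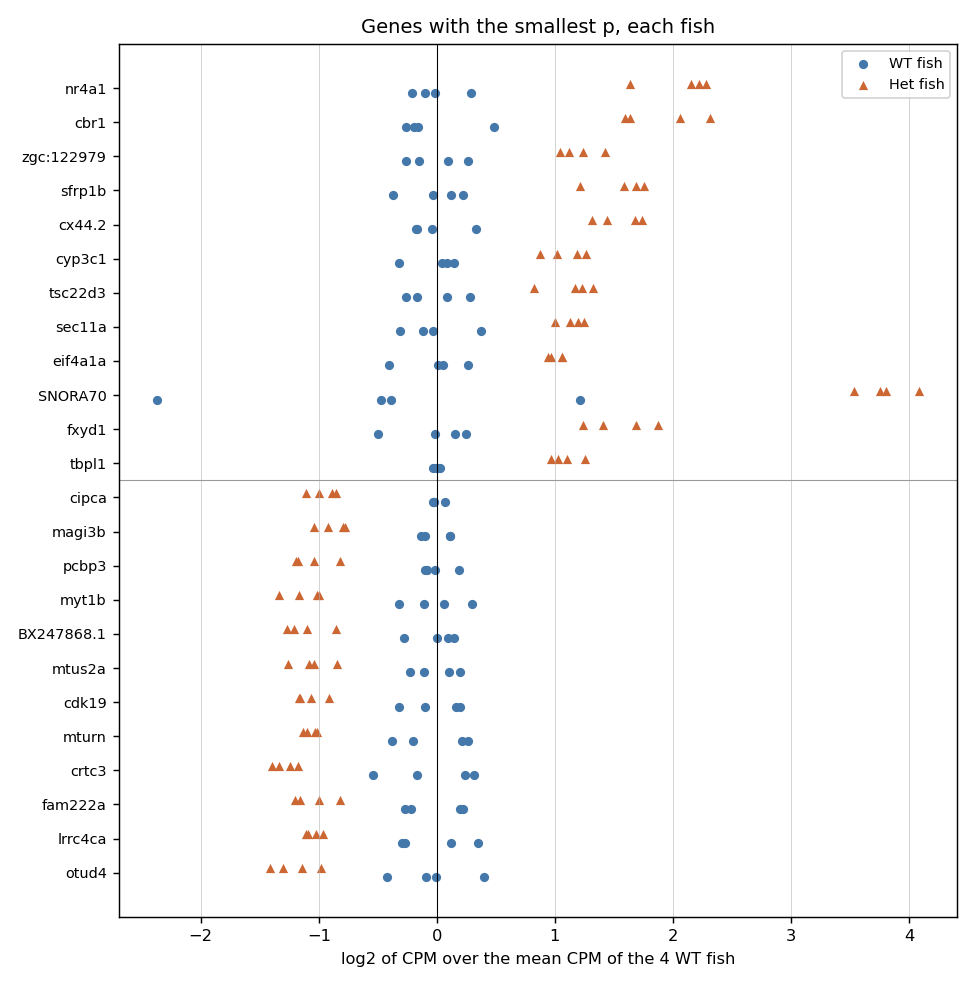
The 12 higher and 12 lower DE genes with the smallest p among named genes whose groups did not overlap. Each symbol is 1 fish, placed by the log2 of its CPM over the mean CPM of the 4 WT fish; circles are WT and triangles Het. The Het fish lie on one side of the WT fish in every gene because the genes were chosen so. The WT fish of SNORA70, with raw counts of 3 to 32, spread most.

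Of the 5 largest rises among DE genes with groups apart, 4 were in single-exon genes of 134 to 184 bp, 1 of them the mitochondrial ATP8 (165 bp, described further on), and the other was *ccl25b*. SNORA70 (134 bp, 1 exon, chromosome 23), a small nucleolar RNA of the class that guides pseudouridylation, stood at 0.917, 0.233, 2.79 and 0.863 CPM in WT and 13.9, 16.2, 20.4 and 16.7 CPM in Het (logFC 3.81, SE 0.46, FDR 0.00115). ENSDARG00000104420 (142 bp, 1 exon, chromosome 19), which has no symbol, went from 0.407, 0.155, 1.05 and 0.863 CPM to 3.62, 3.52, 4.41 and 2.94 CPM (logFC 2.53, SE 0.40, FDR 0.00190). SNORD97 (184 bp, 1 exon), a small nucleolar RNA of the methylation-guide class, went from 0.102, 0.233, 1.13 and 0.518 CPM to 2.51, 2.59, 3.53 and 2.23 CPM (logFC 2.41, SE 0.49, FDR 0.00436). Raw counts of these 3 genes in WT were as low as 3, 2 and 1, and WT 88 was the highest WT fish in each. For SNORD97 and ENSDARG00000104420 every WT fish was under the filter limit of 1.5 CPM. Both genes thus entered the test through Het and Hom fish, and genes that low in every fish were not tested. Without the filter on low counts their logFC was 2.42 and 2.55, with FDR values of 0.00472 and 0.00181. With a per-fish correction for gene length the logFC of ENSDARG00000104420 was 1.30 and that of SNORD97 1.38, with FDR values of 0.0199 and 0.0291. The SNORD97 FDR was also above the limit of 0.01 without Het 80, Het 81, WT 79 or WT 86 (0.0106 to 0.0151). Among longer genes *ccl25b*, a chemokine, rose from 5.50, 4.42, 6.79 and 7.16 CPM to 33.98, 46.7, 28.3 and 20.7 CPM (logFC 2.44, SE 0.33, FDR 0.00146). Its groups were apart, as the choice of these genes required.

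The largest falls were in *dynlt1*, a dynein light chain, from 48.99, 58.5, 17.9 and 11.7 CPM to 5.85, 7.88, 6.83 and 10.3 CPM (logFC -2.15, SE 0.43, FDR 0.00412). *znf385b*, a zinc finger gene, fell from 79.6, 104, 45.6 and 42.5 CPM to 21.8, 19.4, 20.7 and 19.3 CPM (logFC -1.74, SE 0.24, FDR 0.00146). *epsti1* fell from 7.43, 11.2, 4.70 and 5.52 CPM to 1.67, 2.41, 1.98 and 2.76 CPM (logFC -1.70, SE 0.28, FDR 0.00242). In all 3 genes WT 79 and WT 86 were well above WT 88 and WT 95, and the Het fish were close together below them. Of single omissions, 5 ended the *dynlt1* call, with an FDR of 0.0107 to 0.0148 (WT 79, WT 86, Het 80, Het 81 and Het 84). *si:dkey-185m8.2* (logFC -1.78) and BX537166.1 (logFC -1.74) were also highest in WT 79 and WT 86, and lost their calls without the same 5 fish (FDR 0.0103 to 0.0148 and 0.0101 to 0.0168), the latter also without Het 89 (0.0135).

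Gene lists and their members were chosen with earlier results of these data known. Their shares are therefore set beside those of all tested genes as description and not as a test. Partner subunits of γ-secretase were read next, where upper-case symbols are those of the human counterpart and do not state which zebrafish copy is meant. APH1B, a scaffold subunit, rose from 7.03, 6.44, 9.41 and 7.51 CPM to 12.3, 10.3, 11.6 and 11.8 CPM (logFC 0.59, SE 0.14, FDR 0.00747) with groups apart. PSENEN, the presenilin enhancer, had 9.06, 12.6, 12.98 and 10.01 CPM in WT and 12.7, 15.7, 23.04 and 13.7 CPM in Het (logFC 0.54, SE 0.19, FDR 0.0468), with Het 84 highest and Het 80 within the WT range. Of the 4 tested genes of the complex 2 thus passed an FDR of 0.05 (50%, against 15.3% of all tested genes called higher), and 1 (APH1B) passed without Het 81, Het 84, WT 79, WT 86 or WT 95. Nicastrin was not matched to an identifier and was not analysed here.

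Of 19 tested genes among γ-secretase substrates and the Notch pathway, 3 rose at an FDR under 0.05 (15.8%, close to the 15.3% of all tested genes), 0 fell, and the median logFC was 0.07 against 0.01 over all genes. The Notch ligand *dlb* rose from 3.67, 2.40, 1.92 and 1.64 CPM to 6.22, 5.47, 4.85 and 4.81 CPM and was DE (logFC 1.16, SE 0.24, FDR 0.00501). Another ligand, *jag1a*, whose gene lies near *psen2* on chromosome 1, rose from 31.3, 17.3, 20.03 and 27.02 CPM to 45.5, 36.05, 34.5 and 33.5 CPM (logFC 0.65, SE 0.17, FDR 0.0145). The Notch target *her4.1* rose from 2.85, 1.47, 4.96 and 3.88 CPM to 6.50, 5.00, 7.28 and 6.59 CPM (logFC 0.95, SE 0.32, FDR 0.0421). All 3 genes had their Het values above their WT values. APP (the counterpart of the amyloid precursor, logFC -0.29, FDR 0.127), *appa* (logFC 0.03, FDR 0.901) and *notch2* (logFC -0.01, FDR 0.951) did not pass.

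Genes of the ribosome and of oxidative phosphorylation were mostly higher in Het. Of 85 cytosolic ribosomal protein genes, 66 rose at an FDR under 0.05 (77.6%, against 15.3% of all tested genes), 0 fell, and the median logFC was 0.81. *rps16* went from 45.2, 35.8, 100.4 and 49.7 CPM to 203, 214, 341 and 152 CPM (logFC 1.98, SE 0.31, FDR 0.00183). *rpl39* went from 47.1, 44.1, 71.9 and 52.5 CPM to 125, 121, 202 and 104 CPM (logFC 1.36, SE 0.20, FDR 0.00175). In both genes Het 84 was highest and WT 88 was the highest WT fish. The summed level of the list was 8798, 8664.5, 10018 and 8696 CPM in WT and 13353, 13456, 23112 and 11033 CPM in Het, so that Het 84 stood far above its group, and without it 61 genes were higher with a median logFC of 0.53. *rpl29* (logFC 1.30) and *rpl34* (logFC 1.17) were DE as well, and 28 members were DE in all. Mitochondrial ribosomal proteins followed with 30 of 75 higher and 0 lower and a median logFC of 0.36, among them MRPS12 (logFC 1.08, SE 0.19, FDR 0.00268), MRPL32 (0.92) and *mrpl12* (0.64). The median exonic length of this list, 1081 bp, falls in the shortest length class (72 to 1723 bp), where 22.8% of the tested genes were higher.

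The nuclear genes of complex I, which passes electrons from NADH, rose in 26 of 38 cases (68.4%, against 15.3% of all tested genes). The list had 0 lower members and a median logFC of 0.72. *ndufa4*, which is counted both here and with complex IV, went from 63.8, 50.5, 151 and 92.96 CPM to 238, 261, 273 and 239.9 CPM (logFC 1.499, SE 0.26, FDR 0.00260). *ndufs3*, a core subunit, went from 12.02, 12.9, 20.2 and 16.4 CPM to 31.4, 32.2, 43.2 and 28.1 CPM (logFC 1.13, SE 0.17, FDR 0.00183), while NDUFA1 (logFC 1.12) and *ndufc2* (logFC 1.19) were also DE. In each of these genes WT 88 was the WT fish closest to the Het group. The list summed to 2802 CPM in Het 84, compared with 1726 to 1938 CPM in the other Het fish and 1122 to 1480 CPM in WT. Complexes III and IV had 25 of 30 genes higher (83.3%) and 0 lower, with a median logFC of 0.85. They were led by *cox7b* (logFC 1.41, SE 0.24, FDR 0.00247), *cox8a* (1.37) and *cox7c* (1.70). ATP synthase had 15 of 20 higher (75%) and 0 lower, with a median logFC of 0.71. It was led by *atp5mf* (logFC 1.23, SE 0.21, FDR 0.00261), *atp5md* (1.65), ATP5PD (0.86) and *atp5mc1* (1.141). Het 84 was also far above the other Het fish for complexes III and IV (3715 against 2194 to 2541 CPM) and for ATP synthase (3663 against 2034 to 2336 CPM). Without Het 84 the higher genes were 22 for complex I (median logFC 0.59), 18 for complexes III and IV (0.64) and 13 for ATP synthase (0.52), with 1, 0 and 1 lower.

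These lists hold short genes, with median exonic lengths of 1202 bp for cytosolic ribosomal proteins, 842.5 bp for complex I and 800.0 bp for complexes III and IV, and genes under 500 bp took 12.8% ± 5.24 (SD, n = 4) of the counts outside rRNA in Het and 5.95% ± 2.64 in WT (exact permutation test, p = 0.0571). Of all tested genes in the shortest of 4 equal length classes (72 to 1723 bp), 22.8% were higher and 9.41% lower at an FDR under 0.05, compared with 8.12% and 19.8% in the longest (4306 to 98586 bp). With the length correction 59 of the 85 cytosolic ribosomal genes were still called higher (median logFC 0.60), 20 of 38 of complex I (0.61), 20 of 30 of complexes III and IV (0.58) and 13 of 20 of ATP synthase (0.59), with a median of -0.01 over all genes. By the stricter DE criteria the members higher were 28, 10, 7 and 5 in these lists, compared with 16, 2, 4 and 4 under the length correction, 8, 3, 3 and 1 without Het 84, and 7, 2, 1 and 0 with Het and WT fish alone. Without both WT 88 and Het 84 the counts at an FDR under 0.05 were 66, 26, 23 and 14. Whether length or function carries these calls was not tested further. The study itself questions its ribosomal result, because differential expression correlated with the degree of rRNA contamination.

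Mitochondrially encoded mRNAs did not move together. Of the 13 protein genes of the mitochondrial genome, 3 rose (23.1%, against 15.3% of all tested genes). In that list 1 fell (7.69%, against 14.7%) and the median logFC was 0.10. ND3 went from 216, 208, 427 and 428 CPM to 708, 886, 1498 and 639 CPM (logFC 1.54, SE 0.30, FDR 0.00365). ATP8 went from 29.8, 20.6, 256 and 136 CPM to 522, 639, 609.6 and 548 CPM (logFC 2.39, SE 0.58, FDR 0.00975), with WT 88 and WT 95 well above the other WT fish. ND4L was lower in Het (logFC -0.81, SE 0.19, FDR 0.00792), and its groups overlapped. ATP8 overlaps ATP6 (logFC -0.49, FDR 0.119) and ND4L overlaps ND4 (logFC -0.28, FDR 0.243) on the same strand, by 7 bp in each pair, and fragments that reach both genes of a pair cannot be told apart. The ATP8 call was held in only 1 of the 8 fits that left out a Het or WT fish, the fit without WT 88. That fit gave 5 lower members of the list, and the fit without WT 95 gave 6 higher. COX1, the most abundant mRNA of the list, had 25176 CPM in WT and 26463 CPM in Het (logFC 0.07, FDR 0.761).

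The V-ATPase rose in 14 of 26 genes with 0 lower (53.8%, against 15.3% of all tested genes, median logFC 0.42). Its median exonic length of 2178 bp falls in the length class of 1724 to 2642 bp, below the middle of all tested genes. In that class 17.2% of the tested genes were higher and 12.5% lower at an FDR under 0.05. *atp6ap2*, an accessory subunit, went from 54.1, 49.6, 66.5 and 54.5 CPM to 96.4, 111, 135 and 95.3 CPM (logFC 0.96, SE 0.13, FDR 0.00136). *atp6v0d1*, of the membrane sector, went from 89.1, 73.4, 119.8 and 117 CPM to 144, 159, 184 and 163 CPM (logFC 0.71, SE 0.14, FDR 0.00418). Both had groups apart, as did *atp6v1b2* (0.67) and ATP6V1C1 (0.42) of the catalytic sector. The proteasome, which degrades ubiquitinated proteins, had 28 of 49 genes higher (57.1%, against 15.3% of all tested genes) and 0 lower, with a median logFC of 0.51. Its median exonic length of 1498 bp falls in the shortest length class (72 to 1723 bp), where 22.8% of the tested genes were higher. The proteasome list was led by *psmd14* (logFC 0.81, SE 0.12, FDR 0.00167), *psmd8* (0.61), *psma6a* (1.04) and *psmc6* (0.66). Subunits of the cytosolic chaperonin CCT, which folds actin and tubulin, were higher in 6 of 8 cases (75%, against 15.3% of all tested genes, median logFC 0.46). Examples are *cct5* (logFC 0.62, SE 0.10, FDR 0.00183) and CCT8 (0.50). The length correction gave 14, 23 and 5 higher genes for these 3 lists.

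**Figure D4:**
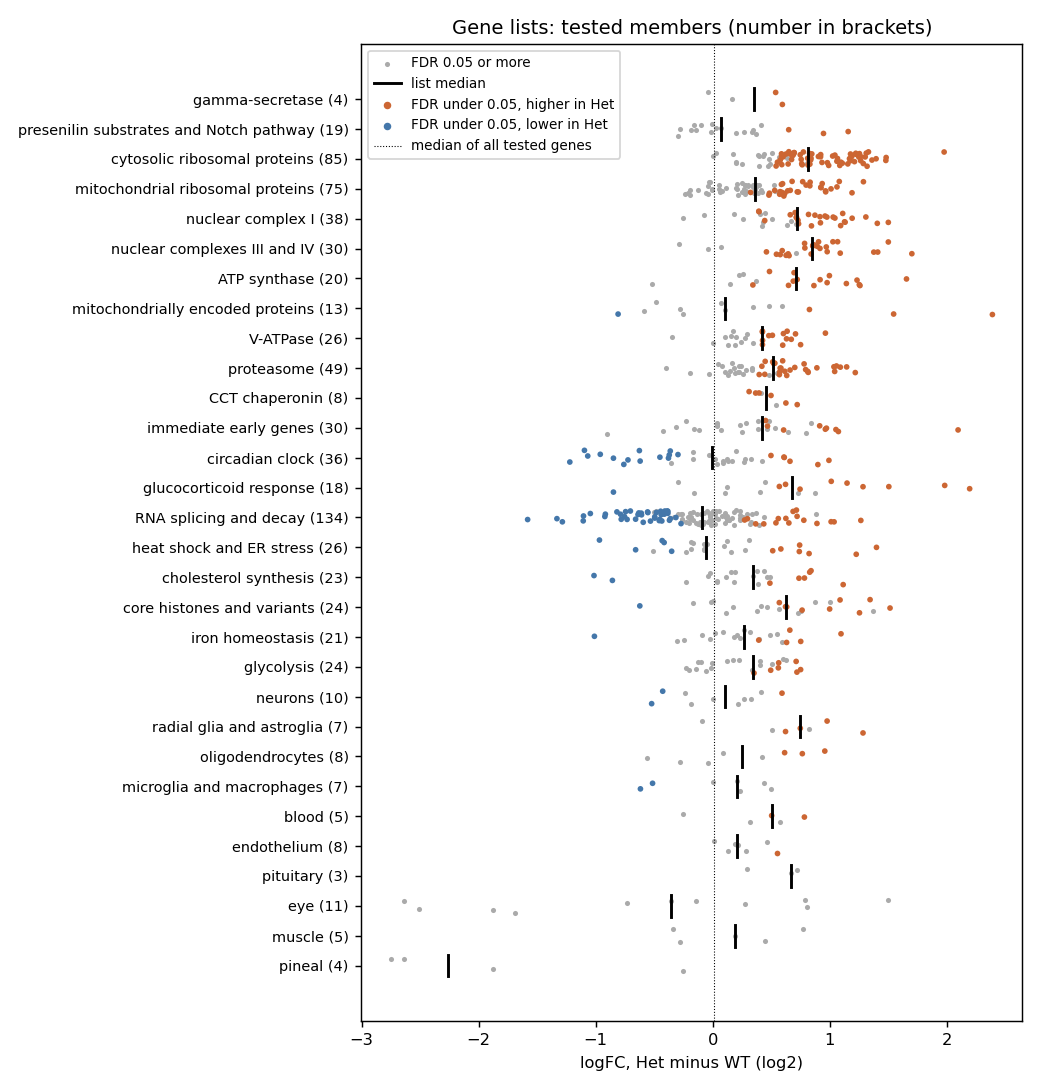
logFC (Het minus WT) of the tested members of each gene list, with the number tested in brackets. Orange and blue points have an FDR under 0.05 and lie higher or lower in Het, grey points do not; black bars are list medians and the dotted line is the median of all tested genes (0.01). Cytosolic ribosomal proteins (66 of 85) and complexes III and IV (25 of 30) hold the largest shares of higher genes among the longer lists, and RNA splicing and decay the most lower genes (42 of 134).

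Immediate early genes, which neurons transcribe within minutes of firing, were in part higher in Het. Of 30 tested genes 9 rose at an FDR under 0.05 (30%, against 15.3% of all genes), 0 fell, and the median logFC was 0.42. Besides *nr4a1*, the kinase gene *plk2b* went from 26.9, 38.6, 31.4 and 28.5 CPM to 58.4, 75.8, 66.5 and 59.5 CPM (logFC 1.05, SE 0.14, FDR 0.00145). *pim3*, another kinase, went from 32.7, 36.5, 31.7 and 27.4 CPM to 57.6, 61.8, 73.8 and 56.7 CPM (logFC 0.96, SE 0.12, FDR 0.00115). *dusp1*, a phosphatase of MAP kinases, went from 6.31, 5.27, 6.27 and 5.35 CPM to 12.5, 13.3, 8.38 and 11.2 CPM (logFC 0.97, SE 0.17, FDR 0.00260). Het 84 was lowest of the Het fish for *nr4a1* and *dusp1* and highest for *pim3*. The activity-dependent factor *npas4a* was named after its values were seen, with means of 70.5 CPM in WT and 148 CPM in Het (logFC 1.07, SE 0.22, FDR 0.00476), whereas FOS (logFC 0.39, FDR 0.243) did not pass. The number of rising members was 14 without WT 88.

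Genes that glucocorticoid hormones induce were also higher, with 9 of 18 rising (50%, against 15.3% of all tested genes), in a list chosen with earlier results of these data known. The list had 1 falling member (5.56%, against 14.7%) and a median logFC of 0.67. *glulb*, a glutamine synthetase, went from 103, 98.3, 123.2 and 98.9 CPM to 264, 283, 257 and 225 CPM (logFC 1.28, SE 0.17, FDR 0.00136). *txnipa*, an inhibitor of thioredoxin, went from 22.9, 21.8, 20.9 and 21.2 CPM to 41.8, 53.3, 34.4 and 45.5 CPM (logFC 1.01, SE 0.14, FDR 0.00150). The Het values of both genes lay above all WT values. *fkbp5*, a chaperone of the glucocorticoid receptor (logFC 1.98, SE 0.48, FDR 0.00906), and the metallothionein *mt2* (logFC 2.19, SE 0.39, FDR 0.00276) had the largest logFC of the list and are named after their values were seen. The receptor itself, NR3C1, had a logFC of -0.29 (FDR 0.0724). The member that fell, *per1a*, is also a clock gene.

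Circadian clock genes were called lower more often than higher in Het, while 18 of the 36 tested had a positive logFC. Of 36 tested genes 6 rose (16.7%, close to the 15.3% of all tested genes). In the same list 14 fell (38.9%, against 14.7% of all genes) and the median logFC was -0.01. *per1a*, a repressor of the clock, went from 248, 239, 206 and 206 CPM to 129, 142, 112 and 117 CPM (logFC -0.85, SE 0.11, FDR 0.00145). *dbpa*, an output factor, went from 422, 375, 334 and 361 CPM to 221, 236, 199.97 and 224 CPM (logFC -0.76, SE 0.11, FDR 0.00175). *nr1d2a*, a nuclear receptor of the Rev-erb kind, moved the other way, from 85.04, 85.6, 76.3 and 81.1 CPM to 161, 174, 128 and 149 CPM (logFC 0.90, SE 0.13, FDR 0.00167). The groups did not overlap in these 3 genes or in *cipca*. The 4 DE members were all lower and comprised *cipca* and the Rev-erb relatives *nr1d1* (logFC -1.07), *nr1d4a* (logFC -1.22) and *nr1d4b* (logFC -1.10), the last 3 named after their values were seen. The activator gene named BMAL1 rose in 1 of its 2 tested copies (logFC 0.61, FDR 0.00453) and its partner CLOCK fell (logFC -0.72, FDR 0.0176). Without WT 79 the number of falling genes was 9. Clock genes cycle over the day, and the time at which each brain was taken is not given in the sources used here.

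**Figure D5:**
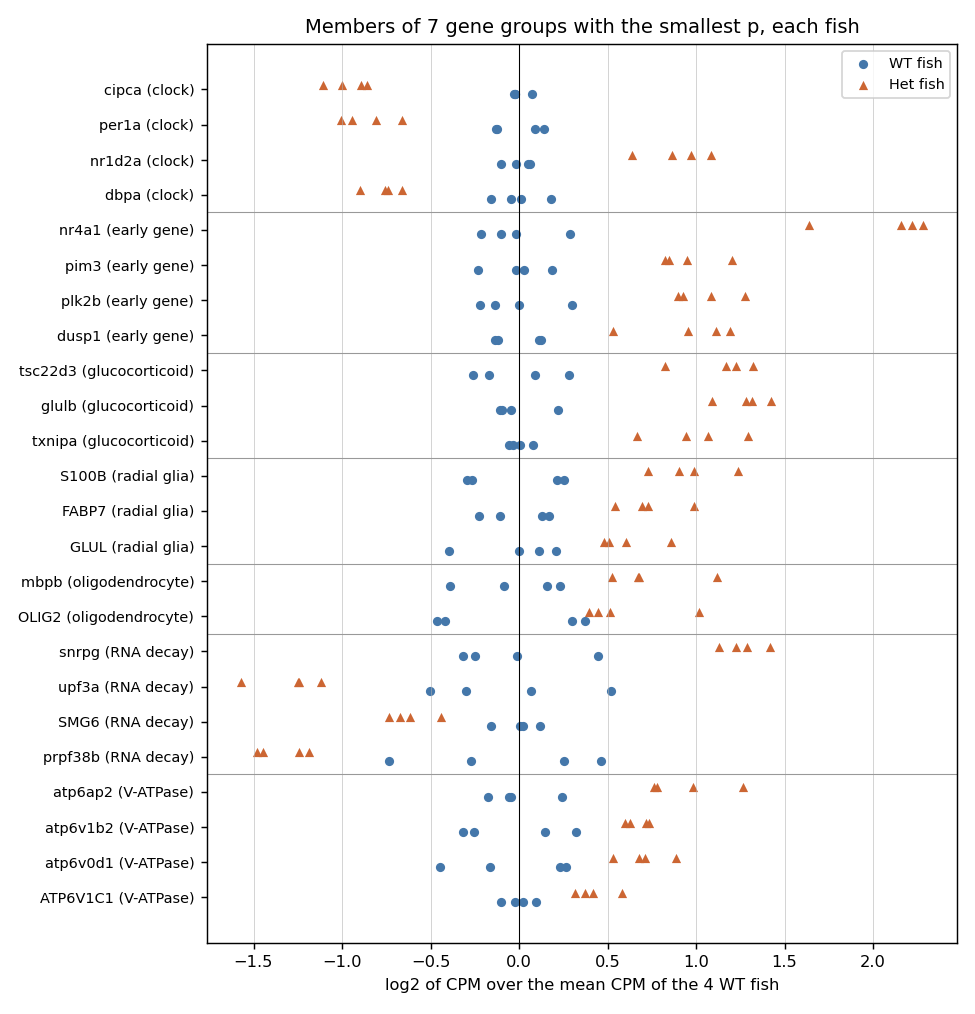
Named members of 7 gene groups with the smallest p, with each gene shown once under the first group that lists it. Each symbol is 1 fish, placed by the log2 of its CPM over the mean CPM of the 4 WT fish; circles are WT and triangles Het. Triangles lie to the right of all circles in 18 of the 24 genes and to the left in 6. The choice by smallest p favours such separation, and groups were apart in 26.9% of all tested genes.

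Genes of RNA splicing and decay were the longest list with more lower than higher members. Of 134 tested, 42 fell (31.3%, against 14.7% of all tested genes), 16 rose (11.9%, against 15.3%) and the median logFC was -0.09. *upf3a*, a factor of nonsense-mediated decay, went from 432, 592, 292 and 336 CPM to 190.4, 175, 139 and 174 CPM (logFC -1.29, SE 0.19, FDR 0.00175). SMG6, the endonuclease of that pathway, went from 87.2, 80.4, 71.8 and 81.4 CPM to 52.3, 50.3, 48.2 and 59.1 CPM (logFC -0.61, SE 0.09, FDR 0.00183). *prpf38b*, a splicing factor, went from 161, 187, 81.3 and 112 CPM to 59.5, 57.2, 48.5 and 49.7 CPM (logFC -1.33, SE 0.20, FDR 0.00183). The WT fish of *upf3a* and *prpf38b* spread widely, with WT 86 highest and WT 88 lowest, and still lay above every Het fish. *snrpg*, a small Sm protein of the spliceosome with 589 bp of exon, moved the other way (logFC 1.26, SE 0.18, FDR 0.00162). Without WT 79 the number of rising members was 10.

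Heat shock and endoplasmic reticulum stress genes were mixed, with 7 of 26 higher (26.9%, against 15.3%), 5 lower (19.2%, against 14.7%) and a median logFC of -0.06. *trib3*, a pseudokinase of the integrated stress response, went from 4.18, 4.19, 4.88 and 4.32 CPM to 11.05, 12.1, 7.06 and 10.8 CPM (logFC 1.22, SE 0.17, FDR 0.00163). *hspe1*, a mitochondrial chaperonin (logFC 1.40, SE 0.30, FDR 0.00534), and *sdf2l1* of the endoplasmic reticulum (0.74) were higher. The transcription factor *hsf2* was lower (logFC -0.66, SE 0.13, FDR 0.00435), and its Het 84 value of 119 CPM lay just under the lowest WT value of 121 CPM. The count of lower members was 2 without WT 79, Het 80 or Het 89 and 1 without WT 86.

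Cholesterol synthesis had 6 of 23 genes higher (26.1%, against 15.3% of all tested genes). It had 2 lower (8.70%, against 14.7%), and its median logFC was 0.34 against 0.01 over all genes. *insig1*, a sterol sensor, went from 33.4, 26.4, 35.5 and 39.8 CPM to 78.1, 56.99, 53.4 and 51.2 CPM (logFC 0.83, SE 0.16, FDR 0.00396). *acat2* (0.78) and HSD17B7 (0.74) rose as well, while SREBF1, a transcription factor of lipid synthesis, was lower with overlapping groups (logFC -1.01, SE 0.26, FDR 0.0114). Only 1 gene of that list was lower without Het 80, Het 81, Het 89, WT 79 or WT 86. Core histones and variants had 9 of 24 higher (37.5%) and 1 lower (4.17%), with a median logFC of 0.63. Their median exonic length of 766 bp falls in the shortest length class, where 22.8% of the tested genes were higher and 9.41% lower. The length correction also covered the histone genes, and the part of length in their calls was not tested further. The histone list was led by *h2afx* (logFC 1.34, SE 0.19, FDR 0.00162), *hist2h2l* (1.25) and *h3f3a* (0.76), and 0 histone genes were lower without Het 80 or WT 79. Iron and hypoxia genes had 5 of 21 higher (23.8%) and 1 lower (4.76%), with a median logFC of 0.27. The transferrin receptors *tfr1a* (logFC 1.09, SE 0.27, FDR 0.0108) and *tfr1b* (0.75), which take up iron, and VEGFA (0.63) rose, and the mitophagy receptor gene *bnip3la* fell (logFC -1.01, SE 0.16, FDR 0.00198), with 2 genes lower without Het 84. Glycolysis had 7 of 24 higher (29.2%) and 0 lower (median logFC 0.34), led by *pgam1a* (logFC 0.72, SE 0.13, FDR 0.00268), *tpi1b* (0.71) and *ldhba* (0.75). Without WT 79 the rising members were 3 for iron and hypoxia and 4 for glycolysis, and without Het 81 they were 3 for iron and hypoxia.

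Markers of radial glia and astroglia were higher in Het. Of 7 tested, 4 rose (57.1%, against 15.3%), 0 fell and the median logFC was 0.75, with a summed level of the list of 3654 to 4656 CPM in Het and 2673 to 3479 CPM in WT. S100B went from 152, 149, 212 and 218 CPM to 431, 362, 303 and 341 CPM (logFC 0.98, SE 0.19, FDR 0.00374). FABP7, a fatty acid carrier of radial glia, went from 231, 212, 279 and 272 CPM to 492, 412, 401 and 362 CPM (logFC 0.75, SE 0.16, FDR 0.00570). The groups were apart in both genes and in *glulb* and GLUL (logFC 0.62, SE 0.14, FDR 0.00642), the glutamine synthetases, of which *glulb* is also in the glucocorticoid list. GFAP, a defining marker, had means of 68.2 CPM in WT and 120.4 CPM in Het (logFC 0.82, FDR 0.127), and the glutamate transporter SLC1A2 1542 CPM and 1444 CPM (logFC -0.09). The part of cell number in these levels was not tested.

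Oligodendrocyte markers summed to 10676 to 11820 CPM in Het and 7403 to 12273 CPM in WT, with 3 of 8 genes higher (37.5%, against 15.3%), 0 lower and a median logFC of 0.25. The myelin gene *mbpb* went from 78.7, 115, 97.2 and 121 CPM to 224, 164, 165 and 148 CPM (logFC 0.76, SE 0.21, FDR 0.0183). OLIG2 had 20.5, 19.9, 33.6 and 35.4 CPM in WT and 35.9, 39.01, 55.3 and 37.2 CPM in Het (logFC 0.61, SE 0.19, FDR 0.0313). SOX10, a lineage factor, had a logFC of -0.04 (FDR 0.816). Of the 8 markers 5 had a positive logFC, and the lowest logFC of the list was -0.56. With DESeq2 and with the likelihood-ratio test 1 marker was called lower. The groups were apart in the 3 genes that passed, and without WT 79 the number of rising markers was 1.

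Microglial and macrophage markers had 2 of 7 lower (28.6%, against 14.7% of all genes) and 0 higher, while the median logFC was 0.21 and 5 of the 7 were positive. *spi1b*, the myeloid factor PU.1, went from 9.98, 13.7, 8.88 and 14.2 CPM to 7.24, 8.62, 7.28 and 7.39 CPM (logFC -0.62, SE 0.16, FDR 0.0136). *mpeg1.1*, a perforin of macrophages, went from 29.9, 35.4, 35.8 and 36.3 CPM to 21.4, 26.5, 26.5 and 21.8 CPM (logFC -0.51, SE 0.15, FDR 0.0233). Both had every Het fish below every WT fish, while *apoeb* (logFC 0.44, FDR 0.0521) and *cd74a* (logFC 0.50, FDR 0.106) did not pass and the summed level of the list ran from 594 to 936 CPM in Het and 488 to 693 CPM in WT. Only 1 of these calls was held without WT 86, Het 80 or Het 89. Neuronal markers had 1 of 10 higher (10%) and 2 lower (20%), shares near those of all tested genes (15.3% and 14.7%), with a median logFC of 0.11. *elavl4*, an RNA-binding protein of neurons, went from 1030.1, 1237, 936 and 969 CPM to 685, 738, 724 and 756 CPM (logFC -0.52, SE 0.11, FDR 0.00522), whereas *syn1* (logFC -0.43, SE 0.14, FDR 0.0312) and GAD2 (logFC 0.59, SE 0.20, FDR 0.0382) had overlapping groups, and the list summed to 5849 to 6333 CPM in Het and 5392 to 6606 CPM in WT. Leaving out Het 81, Het 84, Het 89, WT 79 or WT 86 left 0 neuronal markers higher, leaving out WT 88 gave 3, and 1 marker was lower without Het 80, Het 81, WT 79 or WT 86. Blood markers had 2 of 5 higher (40%, against 15.3%), *cahz* (logFC 0.50, SE 0.13, FDR 0.0118) and *alas2* (logFC 0.78, SE 0.25, FDR 0.0300), and summed to 126.7 to 218 CPM in Het and 109.7 to 144 CPM in WT. The endothelial list had 1 of 8 higher (12.5%, under the 15.3% of all genes), *cdh5* (logFC 0.55, SE 0.18, FDR 0.0363), and summed to 211 to 247 CPM in Het and 172 to 219.9 CPM in WT. In the blood list 1 gene was called without Het 80, Het 84, WT 86 or WT 88, and in the endothelial list 0 without Het 80, Het 81, WT 79 or WT 86 and 2 without WT 88. The parts of blood and vessels in the other results were not tested.

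Chromosome 1 near *psen2* was examined because siblings of unlike genotype also differ in linked alleles. Within 10 Mb of the gene 13 of 267 tested genes were DE (4.87%, against 3.17% of all tested genes), 8 higher and 5 lower, and on the rest of the chromosome 8 of 423 (1.89%). *cbr1* at 47165842 to 47173403, *atp5md* at 49432137 to 49434892 and *jag1a* at 51104984 to 51157660 are the genes named above that lie there. For such genes the mutation and linked alleles cannot be told apart.

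Het and Hom fish were compared directly, because a gene is particular to Het only where that difference itself passes a test. Of the 16021 genes 0 had an FDR under 0.05 (edgeR quasi-likelihood test, smallest FDR 0.516), and 607 had an unadjusted p under 0.05 (3.79%). The likelihood-ratio test and DESeq2 each gave 9 genes. Against the same 4 WT fish, which both comparisons share, 178 genes were DE in Hom (1.11%). The logFC values side by side were 2.09 in Het and 1.84 in Hom for *nr4a1*, 1.94 and 2.05 for *cbr1*, -0.96 and -1.35 for *cipca*, and -1.12 and -1.22 for *myt1b*. For the cytosolic ribosomal list the median logFC was 0.81 in Het and 0.42 in Hom, with 66 and 26 genes called higher at an FDR under 0.05 (15.3% and 9.34% of all tested genes). Complex I had medians of 0.72 and 0.42 with 26 and 6 genes higher, and the clock list 14 lower genes in each genotype (14.7% and 11.0% of all tested genes). The difference between these counts was not tested. Het 84 stood far above its group in the first 2 of these lists. The ribosomal list summed to 23112 CPM in Het 84, 11033 to 13456 CPM in the other Het fish and 10610 to 13399 CPM in Hom. For complex I the sums were 2802 CPM, 1726 to 1938 CPM and 1351 to 1807 CPM. Mitochondrial rRNA took 31.4% to 35.5% of counts in Hom.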

How the data were processed

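RNA of each brain was depleted of rRNA and sequenced as paired-end libraries. The authors trimmed the reads with cutadapt 1.14, aligned them to GRCz11 with STAR 2.7.0d and counted fragments of mapping quality of at least 10 that lay in exons of Ensembl release 98 on the reverse strand with featureCounts (Subread 1.5.2), giving the deposited counts per gene. The deposited table also holds each gene's exonic length (other, in bp) and exon coordinates, and 0 columns of per-fish values lacked a sample.

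Het and WT totals, with rRNA, ran from 11878943 to 17026801 counts, and a floor of 3 counts is 0.176 to 0.253 CPM of these totals. The printed CPM leave rRNA out, so the same 3 counts stand higher on their scale. The 95% Wilson interval of an rRNA share is at most 0.0237 points to either side. Such intervals cover counting error only, and each library was taken as 1 brain although the labels' extraction text speaks of pooled larvae. Genes above 1.5 CPM in at least 4 of the 12 fish were kept, other than the 2 mitochondrial rRNA genes (16021 of 32057). For this filter CPM were taken over all counts, with rRNA. A model of 3 genotypes over 12 fish was fitted with edgeR 4.0.16 in R 4.3.3 (TMM scaling, quasi-likelihood test), with logFC on the log2 scale, standard errors and Benjamini-Hochberg FDR over all tested genes. DE required a Bonferroni-adjusted p under 0.01, or an FDR under 0.01 with a logFC beyond 1. Library measures were tested by exact permutation, two-sided, over 70 arrangements. The printed CPM use TMM-scaled library sizes without the rRNA genes. The edgeR fit of Het against WT, with the quasi-likelihood and the likelihood-ratio test, was also run on simulated counts with known changes.

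Alternatives were DESeq2 1.42.0, edgeR's likelihood-ratio test, upper-quartile and RLE scaling, other filters, a length offset (a spline of 5 degrees of freedom per fish, quantreg 6.1), Het and WT fish alone, the mitochondrial rRNA share as a covariate, and omission of each fish. Gene IDs were named from the study's supplementary gene list (1795 of the tested genes), a table of gene names (13795) or mitochondrial coordinates (13), and 418 had no name. Named genes were the γ-secretase list, the 12 DE genes in each direction with the smallest p and the 5 with the largest logFC among those whose groups did not overlap, and up to 4 members of each list with the smallest p. Members and lists were chosen with earlier results of these data known. A few list members are counted with their lists but not reported singly here.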

Additional observations from a re-analysis of the deposited data

Results flagged for a closer look

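In each of 230 groups of 4 fish (111 genes and 4 library measures, per genotype) the fish farthest from the rest was examined by Dixon's criterion, which flags about 1 group in 20 by chance, and 13 groups had such a fish. Het 84 was the fish in 7 of them and was the highest Het fish each time. It stood at 109 CPM for *cox7b* (other Het fish 63.2 to 70.7 CPM), 259.9 CPM for *atp5mf* (129.5 to 152 CPM), 47.5 CPM for *psmc6* (38.5 to 39.2 CPM), 92.1 CPM for *hspe1* (56.0 to 58.1 CPM), 101 CPM for *hist2h2l* (54.6 to 59.4 CPM), 299.7 CPM for *tpi1b* (192 to 205 CPM) and 55.3 CPM for OLIG2 (35.9 to 39.0 CPM). Het 80 was high for HSD17B7 at 12.3 CPM (others 8.99 to 9.15 CPM), and Het 81 for *spi1b* at 8.62 CPM (7.24 to 7.39 CPM), where it was the Het fish nearest to WT.

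Among the WT fish, WT 79 was high for *cbr1* at 15.8 CPM (others 9.38 to 10.1 CPM) and low for *mpeg1.1* at 29.9 CPM (35.4 to 36.3 CPM). WT 86 was high for *cipca* at 59.2 CPM (55.2 to 55.5 CPM), and WT 88 was high for *mrpl12* at 17.9 CPM (14.4 to 14.6 CPM).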

How the results depend on the processing

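The count of 508 DE genes (335 higher, 173 lower) was 981 with DESeq2 (532 and 449) and 870 with the likelihood-ratio test (368 lower). It was 149 with Het and WT fish alone (96 and 53) and 0 with the mitochondrial rRNA share as a covariate (0 and 0). With the length offset 210 were higher. With WT 88 and Het 84 both left out, an alternative chosen after seeing the data, the count of DE genes was 780 (325 lower). Leaving out 1 fish at a time gave 138 to 820 DE genes, 98 to 510 higher and 40 to 310 lower. By fish, the DE, higher and lower counts were 138, 98 and 40 without WT 79, 187, 138 and 49 without WT 86, 230, 155 and 75 without Het 81, 311, 215 and 96 without Het 80, and 820, 510 and 310 without WT 88. Het against Hom gave 9 genes with DESeq2 and 9 with the likelihood-ratio test. The cause of these moves was not tested.

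The *psen2* logFC was 0.036 without Het 81 and 0.012 without WT 79, and its range over single omissions was -0.0999 to 0.0356. The rRNA share difference was 2.47 points for mt-rnr1 alone (exact permutation test, p = 0.114) and 10.1 to 12.9 points over omissions, among them 10.7 points without Het 81 (exact permutation test, p = 0.0571). The difference in total counts was -544846 without the rRNA genes, and 754919 to 2113104 over omissions, the highest without WT 86 (exact permutation test, p = 0.0286).

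With the mitochondrial rRNA covariate, 109 of 109 called single genes were no longer past their threshold. Of these, 10 changed sign, to -0.59 for ATP8, 0.050 for *dynlt1*, 0.025 for *si:dkey-185m8.2*, -0.33 for *her4.1*, -0.032 for *atp6v1b2*, 0.44 for SREBF1, -0.039 for VEGFA, 0.34 for *syn1*, -0.32 for GAD2 and -0.029 for OLIG2 (log2). No paired analysis was possible because no fish number is shared between genotypes. Precision is limited by 4 fish per group more than by depth, and the time of sampling is unknown. The mitochondrial rRNA share and genotype cannot be told apart.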

Other observations

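DE genes were spread over every chromosome, from 1.11% of the tested genes on chromosome 13 and 1.53% on chromosome 24 to 4.61% on chromosome 23, apart from the mitochondrial genome with 2 of 13. Among 401 tested genes with a single exon 27 were DE and higher in Het and 3 DE and lower (7.48% in all), and their median logFC was 0.38. Of 171 tested genes with under 500 bp of exon 28 were DE and higher and 4 DE and lower. These calls make up 18.7% of the class, against 3.17% of all tested genes, and its median logFC was 0.73. Of the 508 DE genes 101 carried only a clone or cluster number or no name, and they are not described further.

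The 2 mitochondrial rRNAs were also read separately. The 16S gene mt-rnr2 took 20.002%, 21.2%, 13.2% and 20.1% of all counts in Het and 7.94%, 7.04%, 12.5% and 11.3% in WT (exact permutation test, two-sided, p = 0.0286, the smallest that 4 fish against 4 allow). The 12S gene mt-rnr1 took 12.9%, 14.03%, 18.1% and 13.1% in Het and 10.9%, 10.8%, 13.9% and 12.5% in WT (exact permutation test, p = 0.114). Het 84 was the lowest Het fish for the first and the highest for the second. Messenger RNAs of the mitochondrial genome took 8.92% of the counts outside rRNA in Het and 8.93% in WT (means of 4 fish, exact permutation test, p = 0.971).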
